A study of Saccharomyces cerevisiae with 56 samples.

Results

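NSR1 (YGR159C) and DBP2 (YNL112W) are 2 genes of budding yeast out of 6349 genes listed after dubious ORFs were left out. They were chosen by their measured translation efficiency (TE, footprint RPKM over mRNA RPKM, where RPKM are reads scaled to gene length and library size): over 16 time points of the yeast metabolic cycle (YMC), a respiratory oscillation of chemostat cultures, they had the widest range of TE among 4750 genes with enough mRNA counts and at least 32 footprints at every time point. Their YMC values are therefore given as a description and were not tested. Their responses to amino acid starvation come from other cultures. In the R64 assembly, NSR1 lies on chromosome VII, bases 806412 to 807656 of the complement strand, and DBP2 on chromosome XIV, bases 413639 to 416281 of the forward strand. The annotation has 0 genes that overlap either of them.

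NSR1 encodes the yeast counterpart of nucleolin, a nucleolar protein with RNA recognition motifs and an arginine- and glycine-rich (RGG) tail that is needed for normal processing of pre-rRNA. DBP2 encodes a DEAD-box RNA helicase that acts on nascent transcripts, helps load mRNA-binding proteins and has been linked to nonsense-mediated decay and ribosome biogenesis. The DBP2 gene holds a long intron through which the protein is known to limit its own expression, and reads counted on coding exons do not separate spliced from unspliced RNA. Genes for ribosome assembly (ribi genes) are switched on by TORC1 signalling when nutrients are plentiful and are repressed by Dot6, Tod6 and Stb3 when they are scarce. The authors' files mark NSR1 as a ribi gene and do not mark DBP2.

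The YMC was followed in CEN.PK (MATa), a prototrophic strain grown in a chemostat. The starvation samples came from BY4741 (MATa, with his3-delta1 and leu2-delta0 and with met15-delta0 and ura3-delta0) and from strains built on it. Those strains carry the same alleles. The reporter strains were yJW1861 (nop2::klNOP2 with PCCW12-NOP2 at yhrcdelta14), yJW1862 (nop2::klNOP2 with PNOP2-NOP2 there) and yJW1863 (EGFP behind PNOP2 and the ADH1 UTRs there), each with kanMX6 at that locus. The last strain, yJW1864, is labelled dot6::LEU2 tod6::URA3 stb3::kanMX6. By this label it carries LEU2 and URA3, which the other starvation strains lack, so its auxotrophies differ from theirs. Replete cells had amino acids, and starved cells spent 20 min without them. Cycloheximide (CHX), an inhibitor of translation elongation, was given before harvest by centrifugation to every culture except a further replete and starved sample of BY4741. These were filtered and frozen, so CHX, its solvent and the way of harvest cannot be told apart. Each of the 28 samples gave 1 footprint and 1 mRNA library. BY4741, yJW1861, yJW1862 and yJW1863 with CHX served as 4 replicates of the starvation response, while all other conditions stand on single samples.

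Between 10133399 and 27429226 footprints and between 14537913 and 23693465 mRNA reads were counted on genes in the YMC samples. The starvation samples had 3632217 to 20036606 footprints and 9648356 to 14773359 mRNA reads. Starvation raised the TE of GCN4, the transcription activator translated during amino acid shortage, by 3.93 on the log2 scale over the 4 strains (standard error 0.19, adjusted p = 7.4e-08, edgeR quasi-likelihood test). In yJW1864, DOT6 had 4 and 9 mRNA counts in the replete and starved samples and TOD6 had 1 and 0, whereas STB3 had 921 and 1062, within the 736 to 1624 counts of the other 10 starvation libraries. STB3 thus goes against its label, and the strain is called the strain labelled dot6 tod6 stb3 below.

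In the YMC, mRNA and footprints of NSR1 did not move together in every phase. NSR1 mRNA was between 96.3 and 132 RPKM in the 7 samples of reductive building (RB, median 119 RPKM). It stood at 146 RPKM at time point 3, between RB and reductive charging (RC), and at 252 to 308 RPKM over the 4 RC samples (median 272 RPKM). In the 3 samples of the oxidative phase (OX), NSR1 mRNA was 540 RPKM at time point 9, 1050.2 RPKM at time point 10 and 958 RPKM at time point 11. All RC samples thus lay above all RB samples in NSR1 mRNA, and all OX samples above all RC samples.

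Footprints of NSR1 had another order. They were 5.08 RPKM at time point 3, their lowest, and 7.18, 14.3, 21.0 and 36.7 RPKM at time points 4 to 7 of RC. In RB they were 9.27 RPKM at time point 2 and 68.4 to 116 RPKM in the other 6 samples, so the RC samples lay below every RB sample but time point 2 although they held more mRNA. At time points 9, 10 and 11, NSR1 footprints reached 390, 1200 and 1402 RPKM.

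DBP2 followed a similar course at lower mRNA levels per length, though its mRNA was highest at time point 11 and that of NSR1 at time point 10. At time point 3, DBP2 mRNA was 77.0 RPKM, within its RB range, whereas NSR1 mRNA was above that of its RB samples. Its mRNA was 60.6 to 120 RPKM in RB (median 74.9 RPKM), 160 to 189 RPKM in RC (median 174 RPKM) and 327, 577 and 680 RPKM at time points 9 to 11. Its footprints were lowest at time point 3 with 4.47 RPKM, stood at 6.15, 7.30, 12.2 and 16.7 RPKM at time points 4 to 7, and rose to 157, 462 and 1148 RPKM at time points 9 to 11. In RB, DBP2 footprints were 5.47 RPKM at time point 2 and 35.0 to 148 RPKM in the other samples. As for NSR1, RC samples held more DBP2 mRNA and fewer footprints than all RB samples except time point 2.

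The TE of NSR1 was 0.0279 at time point 4 (95% counting interval 0.0247 to 0.0314, from 270 footprints and 10739 mRNA counts) and 1.46 at time point 11 (1.44 to 1.48, from 58034 footprints). The TE of DBP2 was 0.0325 at time point 4 (0.0291 to 0.0364, from 313 footprints) and 1.69 at time point 11 (1.67 to 1.71, from 64331 footprints). These make ranges of 52.5-fold (46.5 to 59.3) for NSR1 and 51.9-fold (46.3 to 58.1) for DBP2, against a median of 2.17-fold over the 4750 genes. A range of at least 8-fold was met by 3.8% of the 4839 genes with enough mRNA counts and at least 1 footprint at every time point. The genes next in order were MAL31, a maltose permease, with 43.4-fold, ESF1, a nucleolar pre-rRNA processing factor, with 40.7-fold, and DAL7, a malate synthase, with 29.4-fold. No time point was replicated, and the intervals cover counting error of reads only.

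**Figure D1:**
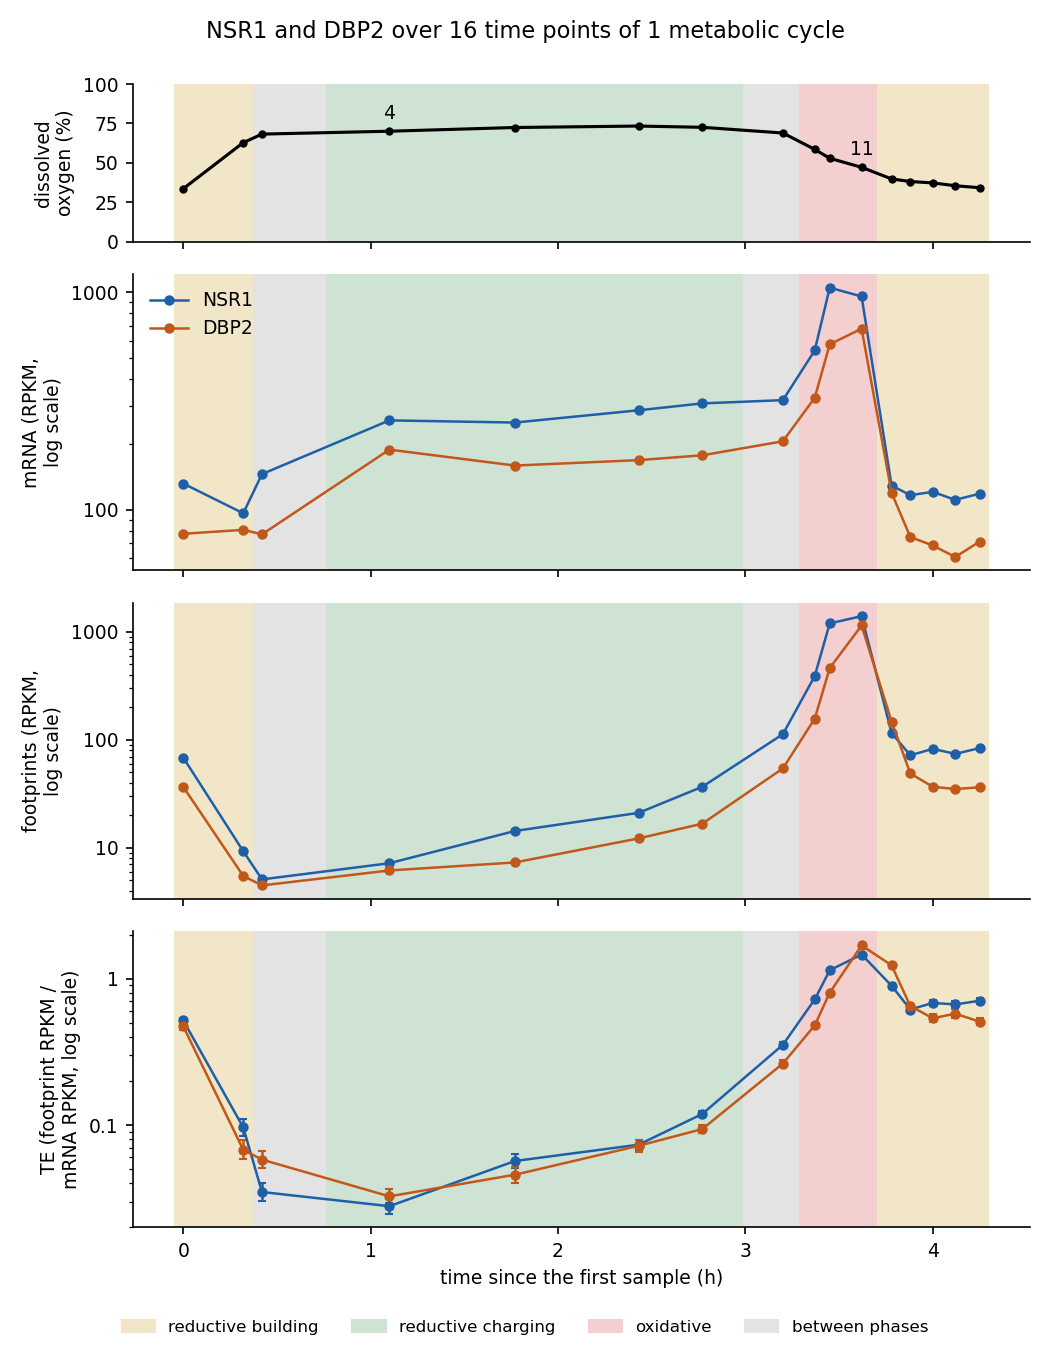
Percent dissolved oxygen and, on log axes, mRNA (RPKM), footprints (RPKM) and TE of NSR1 and DBP2 against hours since the first sample, with 1 sample per point, 95% counting intervals on TE, phases shaded with borders drawn midway between samples, and time points 4 and 11 numbered. NSR1 mRNA stood at 252 to 308 RPKM through reductive charging while its footprints were 7.18 to 36.7 RPKM, and both genes reached their highest TE at time point 11.

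Highest over lowest, NSR1 footprints spanned 276-fold and NSR1 mRNA 10.9-fold, and DBP2 footprints spanned 257-fold and DBP2 mRNA 11.2-fold. A wide footprint range relative to that of mRNA goes with the rule that chose the genes.

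Single steps of the course were also large. From time point 1 to 2, within RB and 19.2 min apart, NSR1 footprints fell 7.37-fold and DBP2 footprints 6.69-fold, while NSR1 mRNA was 1.37-fold lower and DBP2 mRNA 1.04-fold higher. From time point 3 to 4, 40.8 min apart, mRNA rose 1.77-fold for NSR1 and 2.45-fold for DBP2 and footprints 1.41-fold and 1.38-fold. At the end of OX, from time point 11 to 12 and within 9.6 min, NSR1 mRNA was 7.41-fold lower and DBP2 mRNA 5.68-fold lower. The footprints of NSR1 were 12.1-fold lower over that step and those of DBP2 7.77-fold lower, so TE was 1.63-fold lower for NSR1 and 1.37-fold lower for DBP2.

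Set against all genes of the same sample, NSR1 was at percentile 0.61 of TE at time point 3 and 0.74 at time point 4, and at percentile 79.2 at time point 11. DBP2 was at percentile 0.88 at time point 4 and 87.9 at time point 11. At time points 13 to 16, late in the sampled cycle, NSR1 stood at percentiles 25.6 to 29.8 and DBP2 at 14.9 to 28.7.

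NSR1 and DBP2 were each other's most alike gene of 4749 compared, by Pearson's r of log2 TE over the 16 time points after the sample median was subtracted (r = 0.974). Their mRNA courses had an r of 0.979. After DBP2, the TE courses most like that of NSR1 were those of PGA3, a putative cytochrome b5 reductase (r = 0.971), TRM11, a subunit of a tRNA methyltransferase (0.970), DUS1, a tRNA dihydrouridine synthase (0.963), and SER2, the phosphoserine phosphatase (0.963). After NSR1, those most like DBP2 were GUA1, the GMP synthase (0.973), HMT1, the main arginine methyltransferase (0.971), RBA50, a factor for RNA polymerase assembly (0.971), and DUS1 (0.971). The points are neighbouring samples of 1 culture, and the likeness takes no account of size, since the TE range of PGA3 was 3.60-fold and that of DUS1 4.15-fold. These genes differed more in mRNA, with an r to NSR1 of 0.26 for SER2 and 0.975 for TRM11.

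Related genes were set beside the 2 members. All 14 DEAD-box helicases of ribosome assembly had their highest TE at time point 11, with a median range of 4.90-fold, from 2.57-fold for SPB4 to 23.0-fold for FAL1. The 8 core proteins of snoRNPs, the particles that guide rRNA modification, had a median of 6.89-fold, from NOP10 at 3.06-fold to SNU13 at 14.9-fold. Of these snoRNP proteins, 7 had their highest TE at time point 11. Of the other DEAD-box helicases, which act in splicing, export, initiation and decay, 8 of 10 met the minimums, with a median of 2.14-fold, from SUB2 at 1.83-fold to DBP1 at 5.14-fold. Of these 8, 5 had their highest TE at time point 11. RGG-motif RNA-binding proteins had a median of 2.13-fold, from SBP1 at 1.48-fold to NOP1 at 7.56-fold. Proteins of mRNA packaging, export and decay had a median of 2.21-fold, from NAM7 at 1.67-fold to MTR2 at 7.09-fold, while the median of all 4839 genes was 2.18-fold.

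Starvation with CHX lowered mRNA, footprints and TE of both genes in all 4 strains. NSR1 mRNA was 191 RPKM in replete BY4741, 262 in yJW1861, 270.4 in yJW1862 and 320.1 in yJW1863, and 45.1, 68.3, 67.6 and 66.6 RPKM in the same strains after starvation. NSR1 footprints were 168, 209.5, 209 and 335 RPKM in the replete samples and 3.92, 8.11, 4.57 and 5.71 RPKM in the starved ones, the latter from 36, 101, 54 and 91 footprints. The groups did not overlap in either measure, and how many of all genes separate in this way was not counted. The starved mRNA of BY4741 lay apart from the other 3 strains, whose CDS were counted with a shorter mask.

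NSR1 TE was 0.884 in replete BY4741, 0.798 in yJW1861, 0.774 in yJW1862 and 1.05 in yJW1863, a mean of 0.876 ± 0.124 (SD, n = 4). After starvation it was 0.0869, 0.119, 0.0675 and 0.0858 in the same order, a mean of 0.0898 ± 0.0213 (SD, n = 4). Every starved sample lay below every replete one, again without a count over all genes.

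DBP2 mRNA was 105, 149, 154 and 195 RPKM in replete BY4741, yJW1861, yJW1862 and yJW1863, and 22.7, 30.3, 29.3 and 27.1 RPKM after starvation. DBP2 footprints were 98.8, 160.5, 179 and 284 RPKM in the replete samples and 2.66, 2.77, 4.07 and 8.21 RPKM in the starved ones, from 33, 46, 64 and 174 footprints. DBP2 TE went from 0.939, 1.08, 1.16 and 1.46 (mean 1.16 ± 0.219, SD, n = 4) to 0.117, 0.0916, 0.139 and 0.3025 (mean 0.163 ± 0.0953). No starved sample reached a replete one, a separation not counted over all genes, and yJW1863 had the highest DBP2 footprints and TE in both media.

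**Figure D2:**
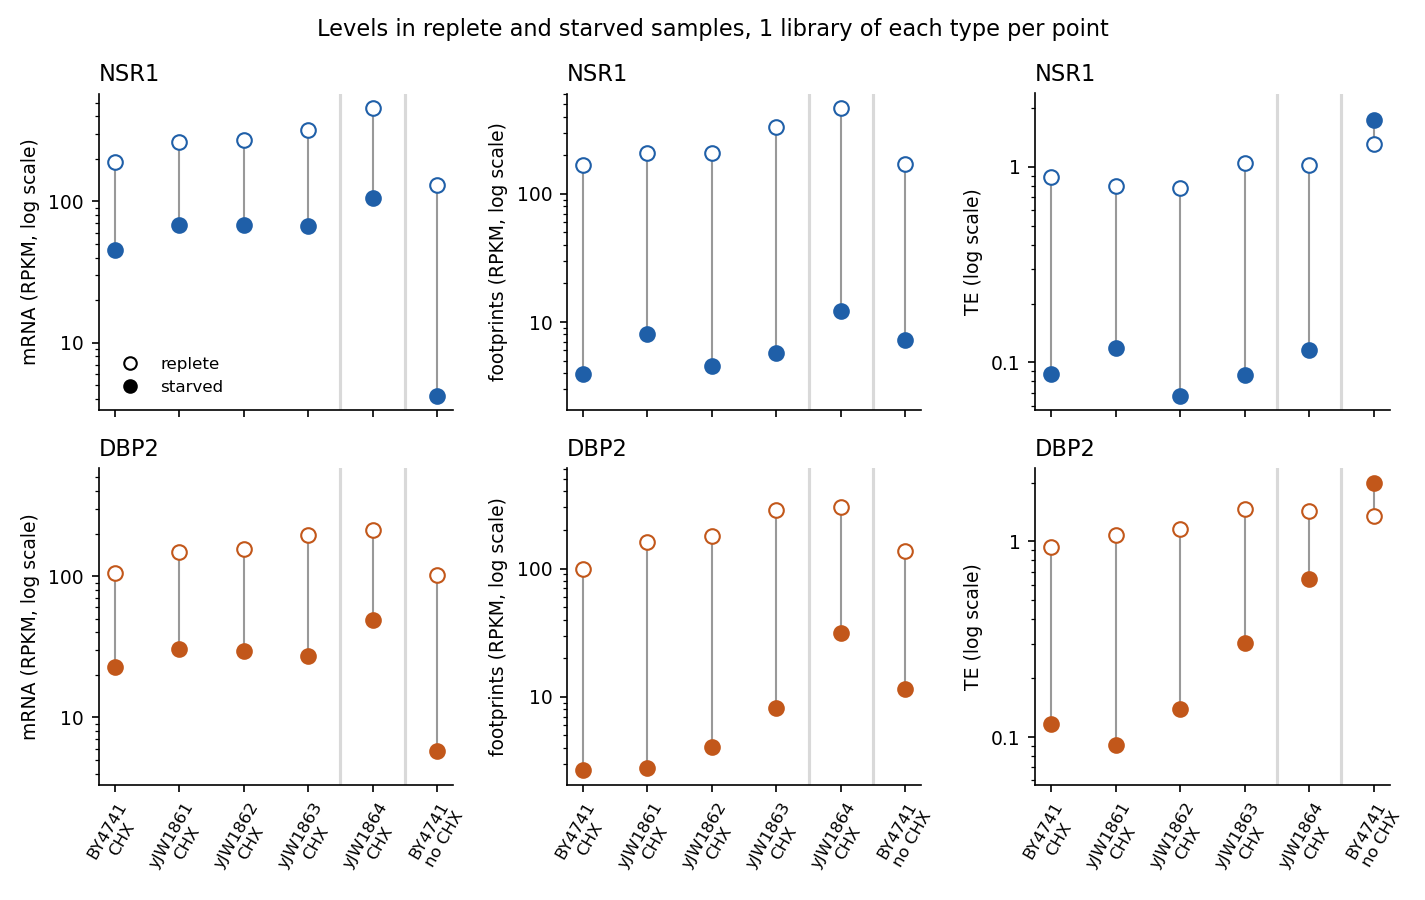
mRNA (RPKM), footprints (RPKM) and TE of NSR1 (upper row) and DBP2 (lower row) on log axes in each replete (open) and starved (filled) sample, with a line joining the 2 samples of a strain and harvest. With CHX, the TE of NSR1 in the 4 strains went from 0.774 to 1.05 down to 0.0675 to 0.119, whereas without CHX it was 1.30 replete and 1.74 starved.

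In edgeR's quasi-likelihood test over the 4 strains, with the strain as a block and Benjamini-Hochberg adjustment over 5064 genes, NSR1 mRNA fell by 2.25 on the log2 scale (standard error 0.07, adjusted p = 2.6e-09) and NSR1 footprints fell by 5.67 (standard error 0.20, adjusted p = 6.3e-09). NSR1 TE fell by 3.41 in the term for a starvation response that differs between footprints and mRNA (standard error 0.21, adjusted p = 3.4e-07), a 10.7-fold reduction, and 6 genes fell further. DBP2 mRNA fell by 2.62 (standard error 0.10, adjusted p = 1.1e-08), DBP2 footprints fell by 5.69 (standard error 0.14, adjusted p = 2.0e-09) and DBP2 TE fell by 3.07 (standard error 0.18, adjusted p = 2.2e-07), an 8.38-fold reduction that 16 genes exceeded. Both members were thus called lower in all measures. Among all genes tested, a called fall was common, since 38.1% had one in mRNA, 36.1% in footprints and 23.7% in TE. The TE change was lower in 4 of 4 strains for both genes, between -3.74 and -2.78 for NSR1 and between -3.59 and -2.40 for DBP2 when computed per strain from RPKM. Nothing in the sources used here says that the strains were grown side by side, so the spread between them may hold day as well as strain.

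All 14 DEAD-box helicases of ribosome assembly were called lower in TE, with a median log2 change of -1.66, from SPB4 at -0.60 to DRS1 at -3.68, the only one of the 14 to fall further than NSR1. Of the 8 snoRNP core proteins, 7 were called lower (median -1.93), with NOP1, the rRNA methyltransferase fibrillarin, at -2.28 and NOP10 at -0.11 (adjusted p = 0.52, edgeR). Of the other DEAD-box helicases, 3 of 8 tested were called lower (median -0.12), from DED1, an initiation helicase, at -0.78 to its paralog DBP1 at 0.45 (adjusted p = 0.089, edgeR). RGG-motif proteins had 3 of 8 called lower (median -0.29), of which NOP1 and GAR1 also stand in the snoRNP list, and HRP1 was highest at 0.16 (adjusted p = 0.53, edgeR). mRNA packaging, export and decay proteins had 3 of 10 called lower (median -0.23), with XRN1, the cytoplasmic exonuclease, lowest at -0.68. Over all genes tested, the median was -0.01, 23.7% were called lower and 17.2% were called higher.

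Without CHX, mRNA fell more and TE showed no called change. In BY4741, NSR1 mRNA was 131 RPKM replete and 4.21 RPKM starved, the latter from 88 counts, below the minimum set for ratios. NSR1 footprints were 171 and 7.30 RPKM, and NSR1 TE was 1.30 and 1.74. The starved sample without CHX thus held less NSR1 mRNA than all 4 starved samples of these strains with CHX and more footprint RPKM than those of BY4741, yJW1862 and yJW1863. Relative to the median of all genes, NSR1 footprints showed no clear difference between the starved BY4741 samples. With CHX over without it, the log2 ratio was -0.16 (95% counting interval -0.74 to 0.43). Divided by the median TE of the sample, NSR1 TE was 1.57 replete and 1.80 starved without CHX, against 2.03 in replete BY4741 with CHX.

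DBP2 mRNA without CHX was 102 RPKM replete and 5.79 RPKM starved, from 164 counts, and its footprints were 138 and 11.6 RPKM. DBP2 TE was 1.34 and 2.00. Divided by the median TE of the sample, these were 1.62 and 2.08, against 2.16 in replete BY4741 with CHX. Between the starved BY4741 samples, mRNA with CHX was 10.7-fold higher than without it for NSR1 (45.1 against 4.21 RPKM) and 3.91-fold higher for DBP2 (22.7 against 5.79 RPKM). Relative to the median of all genes these differences were 9.16-fold and 3.34-fold. Starved DBP2 footprints, unlike those of NSR1, were lower with CHX on that scale, at a log2 ratio of -1.38 (95% counting interval -1.93 to -0.84). In replete cells, mRNA with CHX over that without it was 0.24 for NSR1 and -0.26 for DBP2 on the log2 scale relative to that median, and without the subtraction DBP2 turned to 0.038.

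In the edgeR fit with this pair added, the starvation response of mRNA without CHX was a log2 change of -5.23 for NSR1 (standard error 0.17, adjusted p = 1.4e-07) and -4.42 for DBP2 (standard error 0.23, adjusted p = 5.9e-07), where 32.2% of 5044 genes were called lower. The footprint response was -5.05 for NSR1 (standard error 0.39, adjusted p = 1.4e-05) and -4.07 for DBP2 (standard error 0.26, adjusted p = 7.8e-06), where 22.7% were called lower. The TE response was 0.19 for NSR1 (standard error 0.46, adjusted p = 0.92) and 0.35 for DBP2 (standard error 0.35, adjusted p = 0.76), where 0.159% of genes were called in either direction. From RPKM, the 95% counting interval of the log2 TE change was -0.30 to 0.63 for NSR1 and -0.01 to 0.66 for DBP2. A p above the threshold does not show that TE stayed the same, and these intervals leave out the variation between cultures.

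The difference between the response without CHX and that of the 4 strains with CHX was itself tested. For mRNA it was -2.95 on the log2 scale for NSR1 (standard error 0.18, adjusted p = 2.2e-04) and -1.76 for DBP2 (standard error 0.25, adjusted p = 0.0043), where 4.66% of genes were called lower, and 1 gene had a more negative difference than NSR1. For TE it was 3.57 for NSR1 (standard error 0.51, adjusted p = 0.0027) and 3.38 for DBP2 (standard error 0.40, adjusted p = 9.3e-04), where 2.42% of genes were called higher. For footprints it was 0.62 for NSR1 (standard error 0.42, adjusted p = 0.68) and 1.63 for DBP2 (standard error 0.28, adjusted p = 0.046), where 0.377% were called higher. Without the strain as a replicate block, the 3 DBP2 differences lost their call (adjusted p = 0.13 for mRNA, 0.18 for TE and 1.0 for footprints). The footprint difference of DBP2 was near the threshold and lost its call by edgeR without yJW1861 (adjusted p = 0.12), yJW1862 (0.087) or yJW1863 (0.053). With any 1 strain left out, its size stayed between 1.50 and 1.74 on the log2 scale. The pair without CHX has no replicate and is assumed to vary like the 4 strains.

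**Figure D3:**
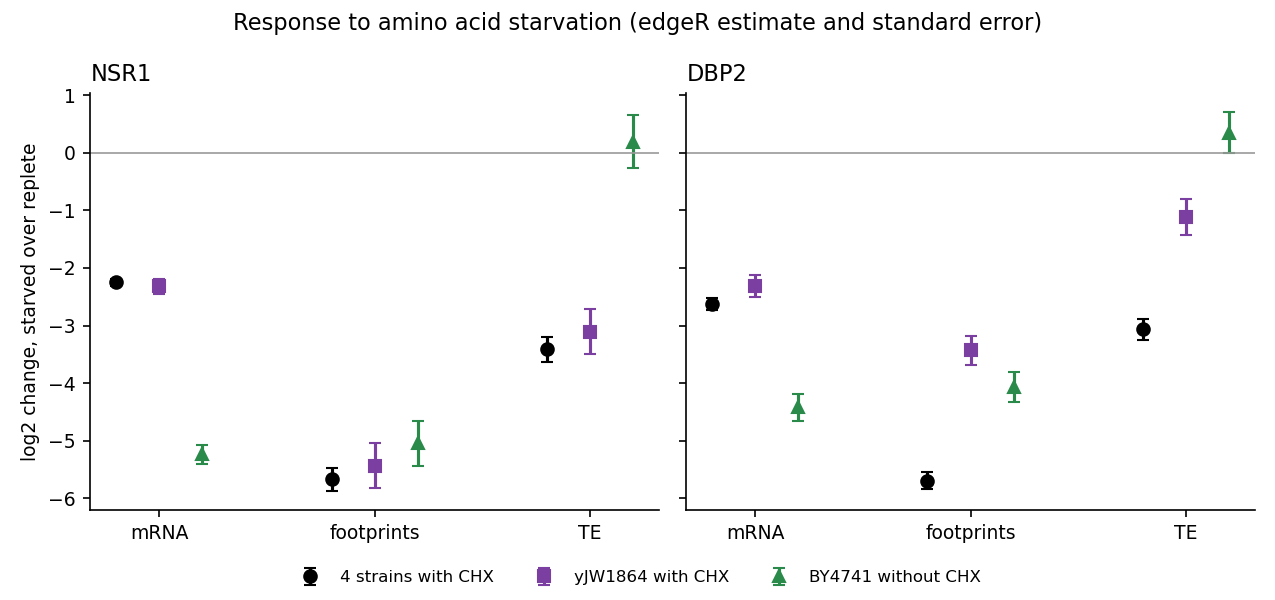
Log2 change from replete to starved in mRNA, footprints and TE of NSR1 and DBP2, as edgeR estimates with standard errors derived from the F statistic, for the 4 strains with CHX (circles), yJW1864 with CHX (squares, 1 pair) and BY4741 without CHX (triangles, 1 pair). For NSR1, TE was at -3.41, -3.11 and 0.19 in that order, and for DBP2 at -3.07, -1.11 and 0.35.

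In the same fits, the TE response without CHX was called for 0 of the 14 ribosome assembly helicases and 0 of the 8 snoRNP core proteins, at medians of -0.10 and 0.07 on the log2 scale, and for 8 of all 5044 genes. At an unadjusted p under 0.05 it was 1 of the 14 and 2 of the 8, and with DESeq2 0 of the 14 and 0 of the 8. The difference from the strains with CHX was called higher in TE for 9 of the 14 helicases, with DBP3 highest at 3.98, and for 6 of the 8 snoRNP proteins, with NOP1 highest at 2.90. In mRNA it was called lower for 9 of the 14 and 6 of the 8. The shares over all genes were 2.42% for TE called higher and 4.66% for mRNA called lower. This difference was called in TE for 0 of the 8 other DEAD-box helicases tested and 0 of the 10 mRNA packaging, export and decay proteins. At an unadjusted p under 0.05 it was 2 of each, and DESeq2 called 0 of each.

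**Figure D4:**
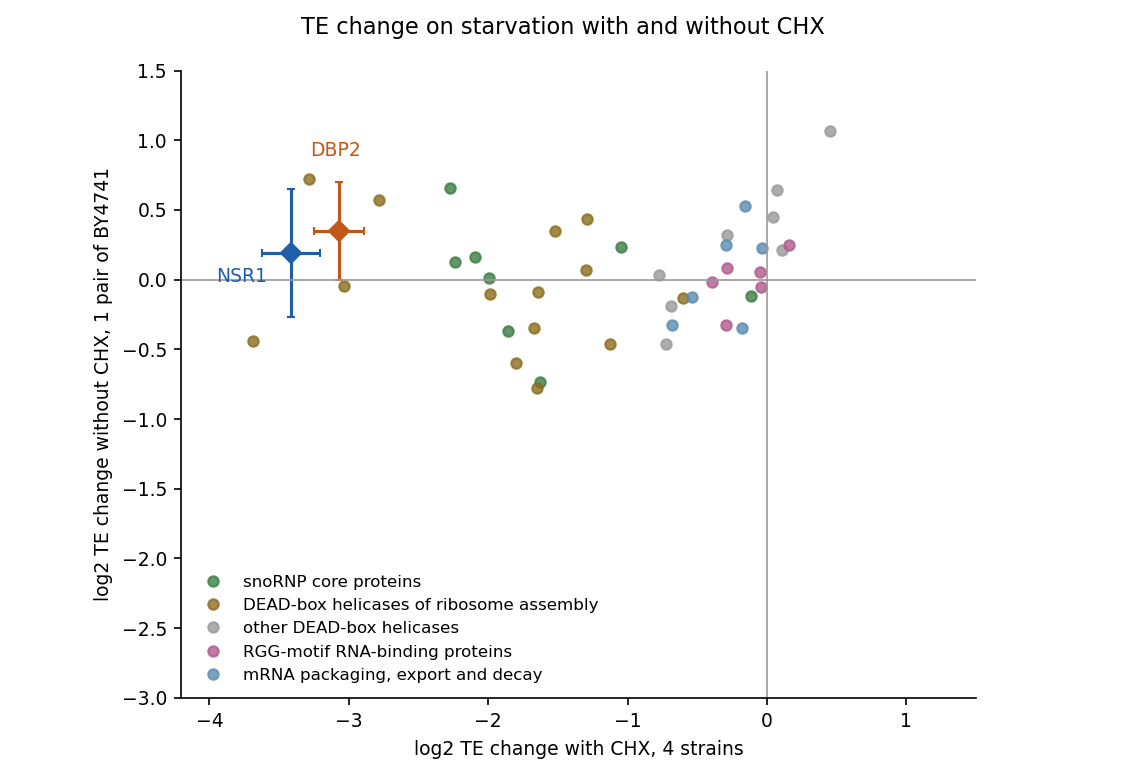
Log2 TE change on starvation with CHX (4 strains, horizontal axis) against that without CHX (1 pair of BY4741, vertical axis) for the genes of the 5 lists, with a gene of 2 lists drawn in the colour of its first list, and for NSR1 and DBP2 with standard errors. NSR1 at -3.41 and DBP2 at -3.07 lie far to the left on the horizontal axis and at 0.19 and 0.35 on the vertical axis.

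In the strain labelled dot6 tod6 stb3, harvested with CHX, starved TE was low for NSR1 and less so for DBP2. NSR1 TE went from 1.02 replete to 0.115 starved, whereas DBP2 TE went from 1.43 to 0.642 (644 footprints and 1448 mRNA counts in the starved sample). Starved DBP2 TE was thus above the 0.0916 to 0.3025 of the 4 strains, and starved NSR1 TE was within their 0.0675 to 0.119.

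NSR1 mRNA in this strain was 459 RPKM replete and 105 RPKM starved, and its footprints were 469 and 12.1 RPKM. DBP2 mRNA was 213 and 49.1 RPKM, and its footprints were 304 and 31.5 RPKM. Both genes had more mRNA and more footprints in either medium than in any of the 4 strains. Against BY4741 with CHX, which shares its CDS mask, replete mRNA was 2.62-fold higher for NSR1 and 2.21-fold higher for DBP2 relative to the median of all genes, and starved mRNA 2.50-fold and 2.32-fold higher. Starved footprints were 2.55-fold higher for NSR1 and 9.78-fold higher for DBP2 on the same scale.

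By edgeR, the mRNA response of this pair was -2.32 on the log2 scale for NSR1 (standard error 0.13, adjusted p = 2.1e-06) and -2.32 for DBP2 (standard error 0.19, adjusted p = 1.2e-05), where 30.1% of genes were called lower. Its footprint response was -5.43 for NSR1 (standard error 0.39, adjusted p = 1.3e-05) and -3.43 for DBP2 (standard error 0.25, adjusted p = 1.4e-05), where 24.6% were called lower. The TE response was -3.11 on the log2 scale for NSR1 (standard error 0.39, adjusted p = 0.0023) and -1.11 for DBP2 (standard error 0.31, adjusted p = 0.061), where 2.67% of 5060 genes were called lower. Its difference from the 4 strains in TE was 1.93 for DBP2 (standard error 0.36, adjusted p = 0.011) and 0.27 for NSR1 (standard error 0.44, adjusted p = 0.89), where 2.77% of genes were called higher. DBP2 lost this call without yJW1862 (adjusted p = 0.062) and without the replicate block (adjusted p = 1.0). In footprints the difference was 2.27 for DBP2 (standard error 0.27, adjusted p = 4.3e-04) and 0.23 for NSR1 (standard error 0.38, adjusted p = 0.75), where 10% were called higher, and DBP2 lost this call without the block (adjusted p = 0.19). In mRNA it was 0.34 for DBP2 (standard error 0.21, adjusted p = 0.32) and -0.04 for NSR1 (standard error 0.14, adjusted p = 0.88), and neither passed the test, which 17.1% of genes did in either direction. Whether the 2 genes differ from each other in this strain was not tested. The TE difference was called higher for 10 of the 14 ribosome assembly helicases, with DRS1 highest at 3.26, and for 6 of the 8 snoRNP core proteins, with GAR1 highest at 1.77, so NSR1 was without a call where most genes of these lists had one.

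Ordered over all 28 samples by TE as computed, with no scaling to the sample median, NSR1 TE ran from YMC time point 4 (0.0279) through time points 3 and 5 and the starved samples with CHX, and ended with time point 11 (1.46) and the starved sample without CHX (1.74). The 5 starved samples with CHX lay between 0.0675 and 0.119, among time points 2, 6 and 7. For DBP2, the lowest 5 were time points 4, 5, 3, 2 and 6, from 0.0325 to 0.0721, and yJW1864 starved lay at place 17 with 0.642. Of the 27 pairs of neighbours in this order, the 95% counting intervals overlapped for 17 in NSR1 and 20 in DBP2. Overlap of intervals is not a test of a difference, and whether such neighbours differ was not tested. Values of yJW1861, yJW1862 and yJW1863 rest on another CDS mask than the rest, which limits comparison of levels across strains.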

How the data were processed

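Footprints and mRNA of the 28 samples were read from the deposited per-gene tables. Per the labels, the submitters' notes name sacCer3, Bowtie 1.1.2 and TopHat2 2.1.1. Reads of rRNA and tRNA were removed, the rest aligned and counted on each CDS by the authors with plastid, by strand, without positions that map to several places. Whether reads with the same molecular identifier were collapsed is not given in the sources used here. The deposited counts are not normalized, and the deposited RPKM were scaled by the authors to CDS length and reads. CDS lengths leave out a median of 108 bases, and 33 bases in yJW1861, yJW1862 and yJW1863. Dissolved oxygen is a percent recorded by the authors. 0 columns of values were left unmatched, and 784 dubious ORFs were left out.

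TE was footprint RPKM over mRNA RPKM. Ratios of single samples had the median log2 ratio subtracted, over genes with 128 mRNA counts and 1 footprint in both, and 95% intervals from counts. Counts were tested with edgeR 4.0.16 in R 4.3.3 (glmQLFit, TMM within library type, strain as block, genes with means of 128 mRNA counts and 1 footprint, adjusted p under 0.05). Standard errors given with edgeR changes were derived as the absolute log2 change over the square root of the F statistic. Each strain's replete and starved cells were split from a single culture, which makes them pairs, and their deviations from the group means correlated with r of 0.59 to 0.83 for mRNA and 0.56 to 0.80 for footprints, to which the shared mask may add. The code was tested on simulated data. Alternatives were RLE factors, DESeq2 1.42.0, other minimums, no block and each strain left out. Named genes are the members, the next 3 in YMC range, the 5 most alike per member and the extremes of each list. The members and lists were chosen with earlier results of these data known.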

Additional observations from a re-analysis of the deposited data

Results flagged for a closer look

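In a group of 4 strains, the starved NSR1 mRNA of BY4741 with CHX, 45.1 RPKM, lay apart from the 66.6 to 68.3 RPKM of the other strains, 1 of 18 groups looked at, and such a gap arises by chance in about 1 group in 20. Its CDS was counted with the longer mask, whose part in the gap was not tested.

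The starvation response without CHX differed from that of the 4 strains with CHX, by the edgeR interaction test, in NSR1 mRNA (-2.95 on the log2 scale), DBP2 mRNA (-1.76), DBP2 footprints (1.63), NSR1 TE (3.57) and DBP2 TE (3.38). The response in yJW1864 differed from that of the same strains in DBP2 footprints (2.27) and DBP2 TE (1.93). Each of these rests on 1 added pair of samples, all 5 of DBP2 lost their call without the replicate block, and the DBP2 footprint difference without CHX kept its call in 5 of 9 alternatives.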

How the results depend on the processing

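The falls of mRNA, footprints and TE of both genes over the 4 strains kept direction and call under all 9 alternatives, with TE between -3.68 and -3.22 for NSR1 and between -3.28 and -2.92 for DBP2. Without the strain as a replicate block, 5 differences of DBP2 lost their call. Without CHX these were -1.73 for mRNA, 1.55 for footprints and 3.28 for TE, at adjusted p of 0.13, 1.0 and 0.18, and in yJW1864 2.19 for footprints and 1.82 for TE, at adjusted p of 0.19 and 1.0, whereas those of NSR1 without CHX kept it in mRNA and TE (adjusted p = 0.015 and 0.047). Over the fits that leave out 1 strain, the DBP2 footprint difference without CHX ran from 1.50 to 1.74, past the threshold only without BY4741, and the DBP2 TE difference in yJW1864 from 1.83 to 2.26, lost without yJW1862. The TE response of DBP2 in yJW1864 alone passed the threshold without BY4741 (adjusted p = 0.024) and with DESeq2 (adjusted p = 0.034), and that of NSR1 lost its call without the block (adjusted p = 0.055). The cause of these changes was not tested.

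The YMC ranges of NSR1 and DBP2 were 37.4 and 37.0 with TE divided by the sample median, 40.4 and 39.9 from TMM-scaled CPM, 32.8 and 27.0 from the second highest over the second lowest TE, 41.0 and 38.0 without time point 11, and 42.0 and 36.9 without time point 4. Under these settings other than CPM, for which no order was computed, NSR1 stayed among the widest 2 ranges and DBP2 among the widest 4. Without the subtraction of the median, BY4741 with over without CHX in replete medium turned sign in NSR1 footprints (-0.024 in place of 0.49), NSR1 TE (-0.56, 0.24), DBP2 mRNA (0.038, -0.26) and DBP2 TE (-0.52, 0.28), and so did NSR1 TE of yJW1864 over BY4741, replete (0.21, -0.31).

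Counts of calls over all genes that moved by more than 1.5 times are these. Without the block, TE calls in the 4 strains went from 2068 to 938. For the pair without CHX they went from 3272 to 2125 in mRNA, 2175 to 1191 in footprints and 8 to 3 in TE, and for its difference from 280 to 42, 26 to 0 and 134 to 20. For yJW1864 they went from 3042 to 1764, 2523 to 1276 and 236 to 9, and for its difference from 864 to 159, 651 to 181 and 150 to 5. With DESeq2, the difference without CHX had 73 calls in footprints, that pair 37 in TE and yJW1864 387 in TE. Without yJW1863, TE calls were 1353 in the 4 strains and 38 in yJW1864. Without yJW1862, the difference without CHX had 151 calls in mRNA, 4 in footprints and 76 in TE, that pair 5 in TE, yJW1864 16 in TE and its difference 516 in mRNA and 95 in TE. Without yJW1861, the difference without CHX had 0 calls in footprints and yJW1864 93 in TE. Without BY4741, the difference without CHX had 137 in footprints, that pair 47 in TE, yJW1864 757 in TE and its difference 1211 in footprints and 256 in TE. Starved footprints of both genes (33 to 174 in the 4 strains) and starved NSR1 mRNA without CHX (88 counts) are few and limit precision.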
